A study of Mus musculus with 6 samples.

Results

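The 9 genes described here encode lipoprotein receptors (Vldlr, Lrp1, Lrp8 and Scarb1), cholesterol exporters (Abca1 and Abcg1) and proteins that remodel lipoprotein particles outside the cell (Lcat, Pltp and Lpl). They were chosen by gene symbol from the 35415 genes of the deposited tables, and each symbol matched 1 row. The lateral septum (LS), a forebrain region between the lateral ventricles, was profiled by bulk RNA-seq in female wild-type C57BL/6 mice. The mice arrived at 8 weeks of age and were acclimated for 1 week. The olanzapine group then received chow with 50 mg/kg olanzapine, a second-generation antipsychotic, for 12 weeks, and the control group received the chow without the drug. Each library was a pool of tissue from 3 mice, with 3 pools per group, so single animals could not be compared and the spread given here is that between pools.

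The brain makes its own lipoproteins, because plasma lipoproteins hardly cross the blood-brain barrier. Astrocytes load cholesterol and phospholipid onto apolipoprotein E through the exporters ABCA1 and ABCG1, enzymes and transfer proteins reshape the particles, and neurons and glia take them up through lipoprotein receptors. VLDLR and LRP8 (ApoER2) are also the receptors for reelin, a secreted glycoprotein that guides neuronal migration and acts on synapses in the adult brain.

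No member passed the test after adjustment over all genes, and the members with the lowest unadjusted p, Vldlr, Abca1, Lrp1 and Pltp, all had lower means in the olanzapine group. All 9 genes passed the filter on low counts. With edgeR's quasi-likelihood test, 0 of 9 were called (an adjusted p under 0.05 by the Benjamini-Hochberg procedure), with or without a fold beyond 2, where 2.32% of the 17255 tested genes were called in either direction. At an unadjusted p under 0.05, 4 of 9 were lower in the olanzapine group and 0 were higher, against 8.40% of all tested genes that were lower and 9.19% that were higher by that rule. DESeq2, another count model, called 4 of 9 lower at an adjusted p under 0.05 (Vldlr, Lrp1, Abca1 and Pltp) and 0 higher, against 2.42% of its tested genes called lower. In 3 of 9 every olanzapine pool lay below every control pool, which held for 11.0% of all tested genes, and in 1 every olanzapine pool lay above, which held for 13.3%. The fitted log2 fold change was below 0 in 7 of 9 members, with a median of -0.11, where 49.3% of all tested genes were fitted below 0 and their median was 0.0039. In bulk tissue, fewer cells of a type and less RNA per cell cannot be told apart.

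The sequences before the start sites of the 4 genes with an unadjusted p under 0.05 are given first, since their means were all lower in the olanzapine group. RefSeq (GRCm38.p6) held promoters for 6 of the 9 members, namely Vldlr, Lrp1, Lrp8, Abca1, Lcat and Pltp. Shown 5′ to 3′ on the gene's strand are the 150 bases up to the start site, at chr19:27216334-27216483 (plus strand), chr10:127621149-127621298 (minus), chr4:53159896-53160045 (minus) and chr2:164857709-164857858 (minus), and capitals mark motif matches.
Vldlr: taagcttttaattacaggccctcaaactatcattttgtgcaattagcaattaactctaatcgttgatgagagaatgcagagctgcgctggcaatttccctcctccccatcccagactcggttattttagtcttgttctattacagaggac
Lrp1: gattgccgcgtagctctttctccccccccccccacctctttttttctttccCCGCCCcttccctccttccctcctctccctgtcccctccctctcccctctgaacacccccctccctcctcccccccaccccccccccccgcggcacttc
Abca1: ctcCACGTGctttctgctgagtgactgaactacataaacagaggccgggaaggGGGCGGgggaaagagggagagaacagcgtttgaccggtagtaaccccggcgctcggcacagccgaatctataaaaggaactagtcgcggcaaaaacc
Pltp: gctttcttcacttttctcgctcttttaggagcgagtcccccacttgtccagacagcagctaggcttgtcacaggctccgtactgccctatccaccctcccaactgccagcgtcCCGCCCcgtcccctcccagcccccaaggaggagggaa
The motifs were searched on both strands from 250 bases before to 50 bases after the start, and positions count back from the start site. The GC box GGGCGG, the letters bound by SP1, was found in Lrp1 from -99 to -94, in Pltp from -37 to -32 and in Abca1 from -97 to -92 and again upstream of the stretch shown, and it occurs in 35.7% of all 32851 promoters. The E-box CACGTG was found in Abca1 from -147 to -142 and occurs in 7.15%. The CCAAT letters occur in 37.4% and were found in Lcat and, outside the stretch shown, in Pltp. A second Vldlr start in the table held a GC box and CCAAT letters, and its sequence is not shown. A direct repeat of AGGTCA with 4 bases between the copies, the consensus form of the element of the oxysterol receptor LXR, was searched. Up to 2 mismatches in 12 letters were allowed. Within that limit it was found in 3.02% of promoters and in no member's promoter. A looser copy with more mismatches than allowed, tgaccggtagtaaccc, lies in the Abca1 stretch shown and reads as the repeat on the opposite strand. The sterol element TCACNCCAC, found in 1.24% of promoters, was in no member's promoter. An absent match says only that these letters, within the mismatches allowed, are not in this window, and not that the promoter lacks the element.

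Among the receptors, Vldlr had the lowest adjusted p of the 9 genes. Vldlr lies on chr19:27216484-27254231. Its normalised read counts were 5209, 5317 and 4752 across the control pools, against 3963, 3730 and 4281 across the olanzapine pools. The groups did not overlap, and all 3 olanzapine pools were lower. The means were 5092 ± 300.1 and 3991 ± 277 (SD, n = 3 pools each). The log2 fold change was -0.35 (SE 0.079, 95% interval -0.53 to -0.17), a level 21.6% lower, with an adjusted p of 0.0683 by edgeR and 0.00778 by DESeq2, and up to 0.215 over all alternatives.

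Lrp1, a large endocytic receptor for apolipoprotein E and many other ligands, lies on chr10:127538161-127621148. It had 23908, 22893 and 20331 normalised counts across the control pools, against 20037, 15363 and 16082 across the olanzapine pools. The groups did not overlap, although the lowest control pool and the highest olanzapine pool were close. The log2 fold change was -0.38 (SE 0.12, 95% interval -0.65 to -0.11), with an adjusted p of 0.149 by edgeR and 0.0321 by DESeq2. Without olanzapine pool 1 it was -0.51, with an edgeR adjusted p of 0.0264, and over all alternatives the adjusted p ran up to 0.345.

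Lrp8, the other reelin receptor, and Scarb1, the receptor that takes up cholesteryl ester from high-density lipoprotein, had overlapping groups. Lrp8, on chr4:107802261-107876840, had 3197, 3075 and 3434 normalised counts across the control pools, against 3289, 3020 and 2691 in the olanzapine pools. Its log2 fold change was -0.11 (95% interval -0.31 to 0.10, adjusted p = 0.573 by edgeR). Scarb1, on chr5:125277087-125341094, had 1094, 1060 and 968 against 1080, 1048 and 992. The Scarb1 means were 1041 ± 65.5 and 1040.1 ± 44.4 (SD, n = 3 pools each), and the 95% interval of its log2 fold change ran from -0.19 to 0.19, that is from 0.875 to 1.14 times the control level.

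**Figure D1:**
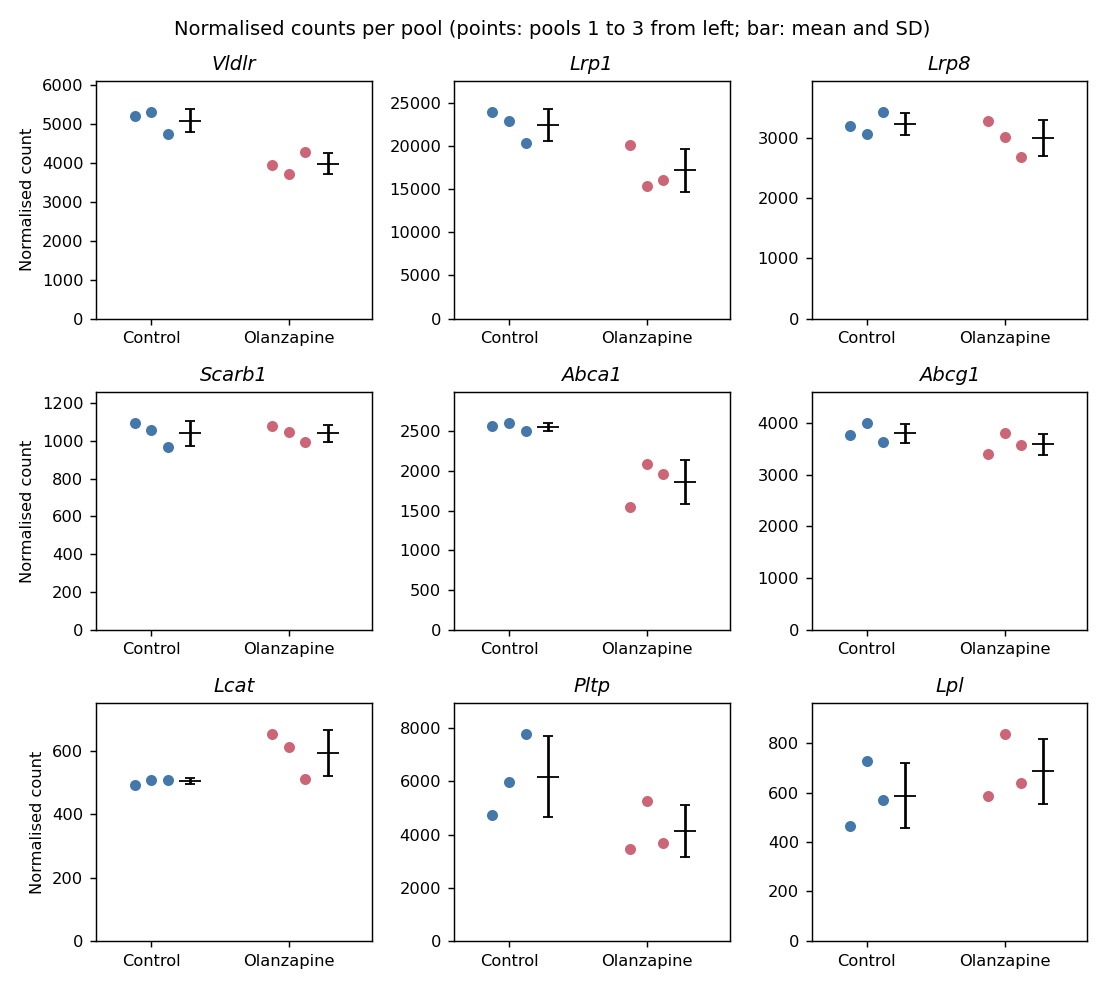
Normalised read count (vertical axis, from 0) of each of the 9 genes in the 3 control and 3 olanzapine pools, with points for single pools and bars for the mean and SD. The olanzapine pools of Vldlr, Lrp1 and Abca1 all lie below the control pools, those of Lcat all lie above, and the groups of the other genes overlap.

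ABCA1 passes cholesterol and phospholipid to lipid-poor apolipoproteins, and ABCG1 adds cholesterol to particles that already carry lipid. Abca1, on chr4:53030787-53159895, had 2565, 2601 and 2503 normalised counts across the control pools, against 1545, 2081 and 1956 across the olanzapine pools. All 3 olanzapine pools were lower, and their SD of 281 was larger than that of the control pools, 49.6. The log2 fold change was -0.46 (SE 0.11, 95% interval -0.71 to -0.21), a level 27.2% lower, with an adjusted p of 0.0818 by edgeR and 0.00811 by DESeq2. Without olanzapine pool 1 it was -0.34, with an edgeR adjusted p of 0.0441, and over all alternatives the adjusted p ran up to 0.253.

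Abcg1, on chr17:31057675-31117988, had 3776, 3995 and 3628 normalised counts across the control pools, against 3392, 3802 and 3569 across the olanzapine pools, and the groups overlapped. Its log2 fold change was -0.08 (95% interval -0.25 to 0.09, adjusted p = 0.604 by edgeR). Within each library the FPKM (fragments scaled for transcript length and library total) of Abca1 was 0.379, 0.363 and 0.385 times that of Abcg1 in the control pools and 0.254, 0.305 and 0.306 times in the olanzapine pools. These ratios did not overlap between the groups, and the difference between the changes of both exporters was not tested. The ratio of Vldlr to Lrp8 overlapped, at 1.42, 1.51 and 1.21 across the control pools, against 1.05, 1.08 and 1.39. The ratio of Lrp1 to Scarb1 did not, at 5.99, 5.92 and 5.76 against 5.09, 4.02 and 4.44. Abca1 and Lrp1 had non-overlapping groups by themselves, so their ratios are no separate result. The share of gene ratios without overlap over all genes was not computed.

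Of the remodelling genes, Pltp had the largest fitted fold change of the 9 genes and also the largest SE. Its product moves phospholipid between lipoprotein particles. Pltp, on chr2:164839518-164857711, had 4742, 5996 and 7776 normalised counts across the control pools, against 3455, 5274 and 3685 across the olanzapine pools. The groups overlapped, since olanzapine pool 2 lay above control pool 1. The log2 fold change was -0.58 (SE 0.21, 95% interval -1.06 to -0.09), with an adjusted p of 0.205 by edgeR and 0.0437 by DESeq2. Without control pool 3 it was -0.37, with an adjusted p of 0.453, the highest over the alternatives run.

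Choroid plexus markers varied between pools of the same group, and their levels are given here beside Pltp. The summed level of 11 choroid plexus markers (without Ttr) was 73.6, 323 and 722 CPM (counts scaled to library total) across the control pools, against 149.98, 546 and 49.9 across the olanzapine pools. Within each group the pool with the most of these markers also had the most Pltp, control pool 3 and olanzapine pool 2, whereas olanzapine pool 1 had more of the markers than pool 3 and less Pltp. Of the 12 choroid plexus markers with Ttr, all were tested, 0 were called by edgeR or DESeq2 and none was at 0 counts. With this sum as a covariate, an alternative added after the data were seen, the Pltp log2 fold change was -0.44 with an adjusted p of 0.106. Pltp also shares 495 exonic bases with Ctsa on the opposite strand, and the strand setting of the counting is not given in the sources used here. For Ctsa, looked up because of this overlap, the log2 fold change was -0.04 (edgeR adjusted p = 0.813).

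Lcat, the enzyme that esterifies cholesterol on high-density lipoprotein, was the gene whose olanzapine pools all lay above the control pools. On chr8:105939551-105943382, it had 494, 510 and 510 normalised counts across the control pools, against 653, 614 and 513 across the olanzapine pools. Olanzapine pool 3 was within a few counts of the control group. The log2 fold change was 0.23 (SE 0.12, 95% interval -0.04 to 0.51, adjusted p = 0.356 by edgeR). LCAT is also made by hepatocytes, and hepatocyte markers differed between the groups. The summed level of 14 such markers, leaving out Ttr and the brain-abundant Trf, was 21.8, 25.5 and 13.5 CPM across the control pools, against 277, 344 and 281 across the olanzapine pools. Of all 16 markers, 14 were called higher by edgeR and 14 by DESeq2, where edgeR called 2.32% of all tested genes in either direction. Trf had a log2 fold change of 0.03. Alb had 460, 501 and 266 normalised counts across the control pools, against 5203, 6551 and 5374, and Hnf4a had 1 read in each control pool against 32, 34 and 35. Their part in the Lcat values was not tested.

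Lpl, which splits triglyceride in lipoproteins, had overlapping groups. On chr8:68880491-68907448, it had 466, 730 and 569 normalised counts across the control pools, against 584, 836 and 639 across the olanzapine pools. Pool 2 was the highest in both groups. The log2 fold change was 0.22 (SE 0.19, 95% interval -0.22 to 0.67, adjusted p = 0.597 by edgeR). It was 0.056 without olanzapine pool 2, 0.079 without control pool 1 and 0.41 without control pool 2.

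**Figure D2:**
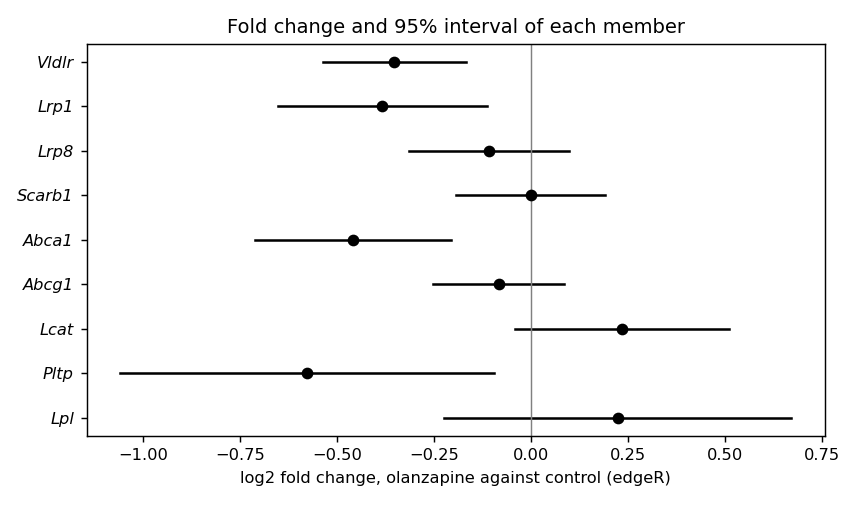
Log2 fold change of olanzapine against control (horizontal axis) for each of the 9 genes, with the edgeR estimate as a point and its 95% interval as a line. The intervals of Vldlr, Lrp1, Abca1 and Pltp lie below 0, and those of the other 5 genes include 0.

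Levels between genes were compared as FPKM, which scales for gene length. In the control group the order was Pltp (85.1 ± 21.8), Lrp1 (37.6 ± 2.78), Abcg1 (16.6 ± 0.802), Vldlr (10.2 ± 0.551), Lcat (9.41 ± 0.268), Lrp8 (7.40 ± 0.456), Scarb1 (6.38 ± 0.349), Abca1 (6.22 ± 0.113) and Lpl (3.69 ± 0.855), each as mean ± SD with n = 3. The ranges of neighbours overlapped for Vldlr and Lcat and for Scarb1 and Abca1, and for no other neighbours in the control order. In the olanzapine group the mean of Lcat was 11.2 ± 1.37 and that of Vldlr 8.09 ± 0.474, so their order was turned. Abca1, at 4.61 ± 0.793, stood close to Lpl, at 4.39 ± 0.958. The FPKM follow from the same counts: over 18693 genes with counts in all libraries, the gene length they imply differed between libraries by at most 1.96e-06 of itself, so they are no second measurement.

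**Figure D3:**
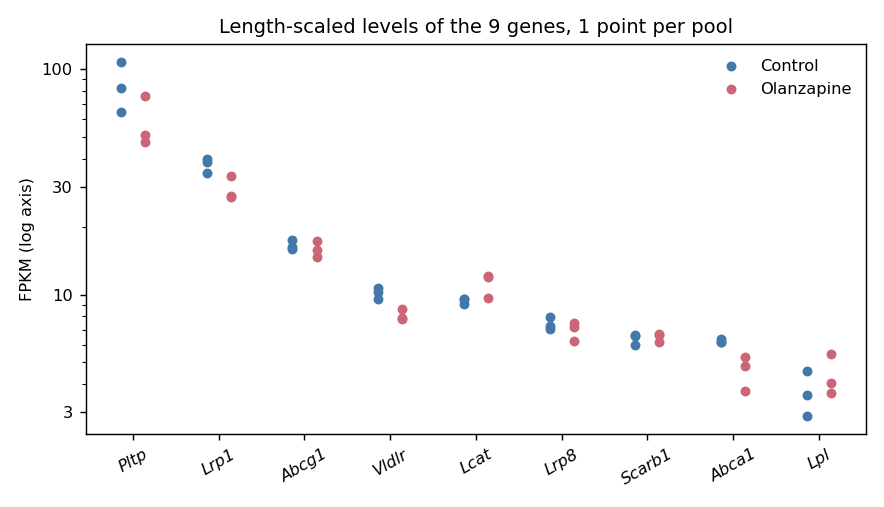
FPKM of the 9 genes in each pool, in the order of the control means, with the FPKM axis on a log scale. Pltp and Lrp1 lie above the other genes in both groups, and Lcat and Vldlr change places between the groups.

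Astrocyte markers are given beside Abca1 and Lrp1. The summed level of 12 astrocyte markers was 6441, 6047 and 5830 CPM across the control pools, against 5195, 5000.3 and 5700.2 across the olanzapine pools, and these sums did not overlap. That rested on Slc1a2: the other 11 summed to 3539, 3201 and 3377 CPM across the control pools, against 2832, 3086 and 3391, which overlapped. Of the 12 markers, 4 were fitted above 0, 5 were lower at an unadjusted p under 0.05, and none was at 0 counts. By edgeR 0 were called, and DESeq2 called 2 lower, Sox9 (log2 fold change -0.58, adjusted p = 0.00163) and Slc4a4 (-0.41, adjusted p = 0.0251). Slc1a2, Sox9 and Slc4a4, like Trf above, were named after their values were seen. The part of these markers in the Abca1 and Lrp1 values was not tested. All 15 LS neuron markers were tested, with 5 lower at an unadjusted p under 0.05, 0 called by edgeR and 2 called lower by DESeq2. Of these markers, Trpc4 had 3404, 2493 and 2527 normalised counts across the control pools, against 1870, 1624 and 2498, and Crhr2 had 453, 413 and 512 against 270.0, 397 and 444. Beside the counts of both lists, 8.40% of all tested genes were lower at an unadjusted p under 0.05 by edgeR. DESeq2 called 2.42% of its tested genes lower.

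Olanzapine pool 1, without which Lrp1 and Abca1 were called, stood apart in neuronal markers. Its LS neuron sum was 2200 CPM, against 2480 and 2965 in the other olanzapine pools and 2707 to 3472 in the control pools. Its cortical and hippocampal glutamatergic sum was 3176 CPM, against 1505 to 1982 in the other 5 pools, and its pan-neuronal sum was 6279, against 4356 to 5015. The part of these markers in the Lrp1 and Abca1 values was not tested. By list, the median log2 fold change was 3.87 over the hepatocyte, 1.73 over the cortical and hippocampal glutamatergic (8 of 9 fitted higher) and 0.28 over the striatal neuron markers. It was -0.59 over the choroid plexus, -0.59 over the ependyma, -0.41 over the endothelium and -0.37 over the LS neuron markers. The other 9 lists with tested genes had medians from -0.18 to 0.12. In the cortical and hippocampal glutamatergic list 1 gene was lower and 1 higher at an unadjusted p under 0.05 by edgeR. DESeq2 called 1 gene of that list lower and 0 higher. The sums of that list in olanzapine pools 2 and 3 were 1505 and 1733 CPM, against 1697 to 1982 in the control pools. Of the 17 marker lists, 16 held no gene called by edgeR, and 9 held none called by DESeq2. The adipocyte list had 0 of 5 genes tested, with Lep at 0 counts in every library. Total counts ran from 38208153 to 39868872 per library.

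**Figure D4:**
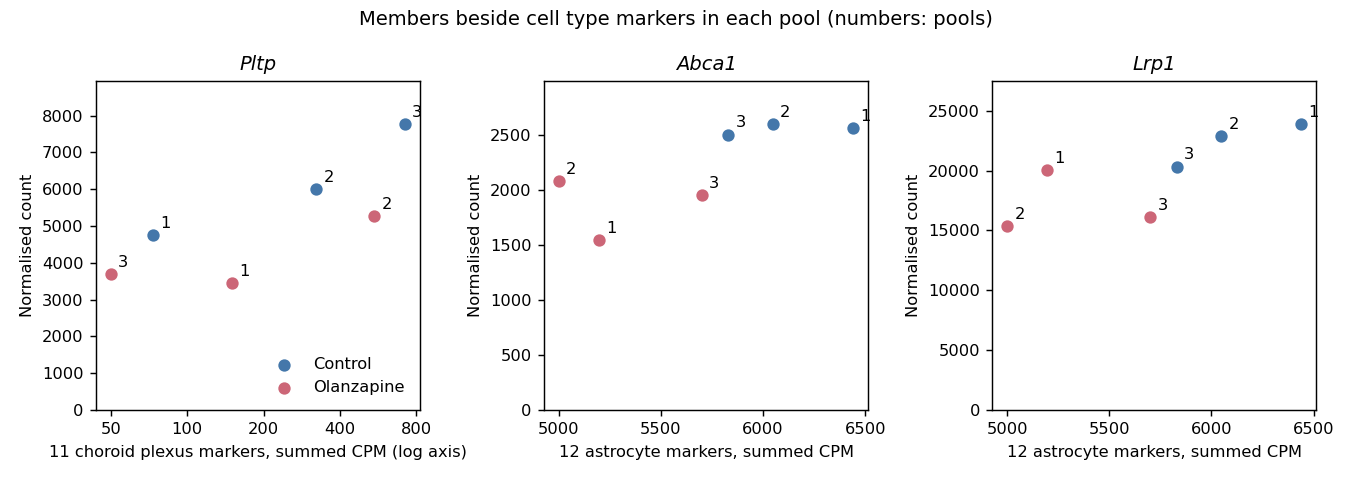
Normalised read count of Pltp against the summed CPM of 11 choroid plexus markers (log axis), and of Abca1 and Lrp1 against the summed CPM of 12 astrocyte markers, with 1 point per pool. Pltp is highest in the pool of each group with the most choroid plexus RNA, and the olanzapine pools lie below the control pools in the astrocyte sum, which rests on Slc1a2.

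The fold changes also varied with transcript length across all genes. The length implied by the FPKM was 12719 bases for Vldlr, 15084 for Lrp1, 11103 for Lrp8 and 10432 for Abca1, all in the top decile of length among tested genes. The median log2 fold change was -0.07 in that decile and 0.08 in the bottom one. With an offset for length the log2 fold changes were -0.28 for Vldlr, -0.31 for Lrp1, -0.046 for Lrp8 and -0.39 for Abca1, with adjusted p of 0.0705, 0.113, 0.854 and 0.171 by edgeR. Without the offset that of Lrp8 was -0.11. Pltp, at 1845 bases, was outside that decile, and its value with the offset was -0.62.

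The other genes of the pathway were taken from 6 lists of 94 genes, of which 83 were tested. Outside the apolipoproteins 0 of 71 were called, 12 were lower and 3 higher at an unadjusted p under 0.05, where 8.40% of all tested genes were lower and 9.19% higher, and the median log2 fold change was -0.14. Among 20 other lipoprotein receptors tested, 7 were lower at an unadjusted p under 0.05 and 0 higher, and the median was -0.28. The most abundant, Sort1 and Lrp11, had log2 fold changes of -0.03 and -0.06.

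The counts of the next lists are again at an unadjusted p under 0.05 by edgeR, where 8.40% of all tested genes were lower and 9.19% higher. Of 10 adaptors and regulators tested, 1 was lower and 0 higher. The receptor chaperone Lrpap1 and the sorting nexin Snx17 had log2 fold changes of -0.05 and -0.08. Reln, the gene of the ligand of VLDLR and LRP8, named here after its values were seen, had 3294, 3196 and 2877 normalised counts across the control pools, against 2474, 2504 and 2586 across the olanzapine pools. Its groups did not overlap, and its log2 fold change was -0.31 (SE 0.073), with an adjusted p of 0.0786 by edgeR and 0.0231 by DESeq2. Of 13 other exporters tested, 1 was lower and 0 higher, and Abca2 and Abca3, the most abundant, had log2 fold changes of -0.16 and -0.18. Of 15 genes of sterol transport and storage inside the cell, 2 were lower and 2 higher. Cyp46a1, the neuronal enzyme that turns cholesterol into 24-hydroxycholesterol, had 0.27 on the log2 scale (adjusted p = 0.0930 by edgeR and 0.0341 by DESeq2), and its groups did not overlap. Scp2, a sterol carrier, had 0.06. Of 13 other lipases and remodelling genes tested, 1 was lower and 1 higher, with Pla2g7 at -0.09 and Pon2 at -0.13.

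Of 12 apolipoprotein ligands tested, 8 were called higher and 0 lower by edgeR, against 2.32% of all tested genes called in either direction. All 8 were beyond a fold of 2. The log2 fold changes were 5.28 for Apob, 3.93 for Apoa1, 2.46 for Apoa2, 6.59 for Apoa4, 4.64 for Apoa5, 1.33 for Apoc1, 3.16 for Apoc3 and 2.21 for Apoh, with adjusted p from 0.000162 (Apoa1) to 0.0237 (Apoc1) by edgeR. Apoa1 had 59.9, 63.2 and 49.6 normalised counts across the control pools, against 833, 1011 and 787 across the olanzapine pools. DESeq2 called these 8 and also Apom (adjusted p = 0.0163), which had an adjusted p of 0.0602 by edgeR. Apom had at most 3 counts in each control pool, and set against that floor of 3 counts per library it was at least 5.64-fold higher in the olanzapine group. These are genes known from liver, and Apoa1, Apoa2, Apob and Apoh are themselves among the hepatocyte markers given beside Lcat, so the 2 lists are not independent. The apolipoproteins abundant in brain, Apoe and Clu, had log2 fold changes of -0.02 and -0.18, and neither was called.

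**Figure D5:**
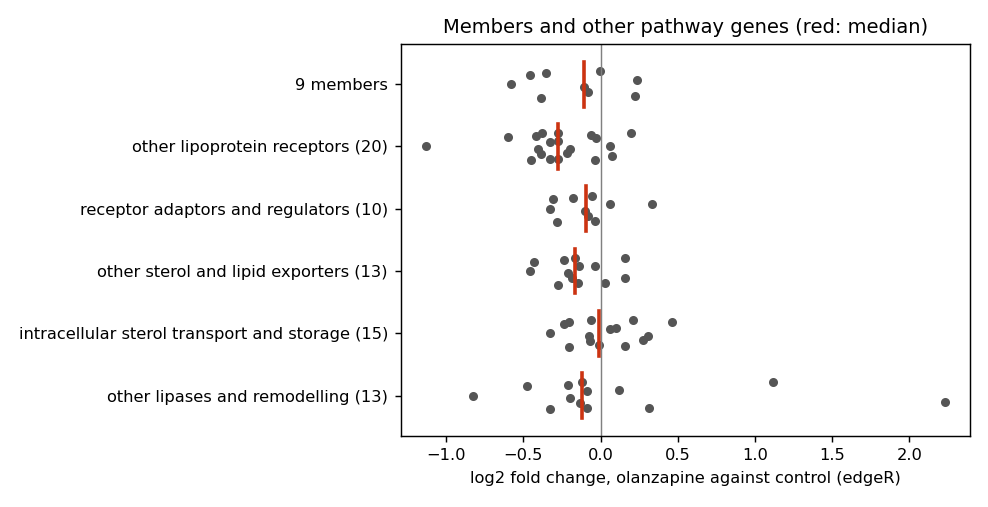
Log2 fold change of olanzapine against control (horizontal axis) for the 9 members and the tested genes of 5 pathway lists, without the apolipoproteins, with 1 point per gene and a red line at each median. Of the members 7 of 9 lie below 0, and of the other receptors 17 of 20.

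The genes with profiles most like those of the 2 members with the largest fold changes were sought over 14278 genes and 6 libraries, by the root mean square difference of centred log2 CPM. For Pltp, whose own profile had a root mean square of 0.401 about its mean, they were Prelp (0.0534), Glis3 (0.0715) and Drc3 (0.0723). For Abca1, with 0.269 about its mean, they were Nynrin (0.0417), Smoc1 (0.0473) and St8sia4 (0.0595).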

How the data were processed

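RNA was extracted from the LS with TRIzol and sequenced from 6 pooled libraries. The authors trimmed reads with fastp, aligned them with HISAT2 (mm10 per the labels) and used HTSeq-count for gene counts. The deposited values are these raw counts and FPKM by the authors. Versions, annotation and strand setting are not given in the sources used here. Unused sample columns numbered 0. Counts were normalised with TMM and tested with edgeR 4.0.16 (quasi-likelihood F test, group only; R 4.3.3) after filterByExpr (minimum count 10, minimum total 15), with Benjamini-Hochberg adjustment. The SE is the size of the log2 fold change divided by the square root of F. DESeq2 1.42.0, limma 3.58.1 on log2(FPKM + 1) or log2(FPKM + 0.1), other normalisations and filters, a replicate block, a length offset and leaving out each library were alternatives. Scripts were tested on simulated data. With 3 pools against 3, an exact permutation test cannot go below 0.1. Named were all members, called pathway genes, the 2 most abundant of each pathway list, defining markers, and the 3 genes most like the 2 most changed members. The members and lists were chosen with earlier results of these data known. Loci are GRCm38 (GENCODE M21).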

Additional observations from a re-analysis of the deposited data

How the results depend on the processing

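The number of the 9 members called was 0 with edgeR, 4 with DESeq2 and 1 (Vldlr, log2 fold change -0.38) with the choroid plexus covariate, and it ran from 0 to 2 when each library was left out, with 2 (Lrp1 and Abca1) without olanzapine replicate 1. The values by DESeq2 were -0.36 for Vldlr, -0.39 for Lrp1, -0.46 for Abca1 and -0.58 for Pltp. Leaving out each library gave -0.51 to -0.31 for Lrp1, -0.55 to -0.34 for Abca1, -0.79 to -0.37 for Pltp, -0.18 to -0.037 for Lrp8, -0.13 to -0.040 for Abcg1, 0.16 to 0.33 for Lcat and 0.056 to 0.41 for Lpl. Vldlr, Lrp1 and Abca1 were below 0 with an unadjusted p under 0.05 in all 17 alternatives, and Pltp in 12. Lcat was above 0 with an unadjusted p under 0.05 in 4 alternatives. Abcg1, Lpl, Lrp8 and Scarb1 reached that limit in 0. Scarb1 changed sign around 0: 0.0043 with upper-quartile normalisation, 0.0077 with a mean of at least 50 counts, 0.00024 with the replicate block, 0.020 with limma on log2(FPKM + 1) both filtered and unfiltered, 0.023 with log2(FPKM + 0.1), 0.010 with the length offset, and -0.043 to 0.035 when each library was left out. Pathway genes called numbered 8 with edgeR, 13 with DESeq2 and 5 to 10 when each library was left out, with 5 without control replicate 1 or olanzapine replicate 3. All genes called numbered 401 with edgeR, 174 with a fold beyond 2, 1097 with DESeq2, 140 with the replicate block, 240 with limma on unfiltered FPKM, and 131 to 508 when each library was left out. The cause was not tested.

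The deviations of same-numbered pools from their group means correlated at 0.015, 0.11 and -0.40, and those of differently numbered pools at -0.53 to 0.52. With 3 pools per group these values cannot show whether same-numbered pools were handled together. The sample labels give only a replicate number. The paired fit with the replicate block called 0 members.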
